A study of Bos taurus with 20 samples.

Results

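The 10 genes described here are protein-coding genes of the mitochondrial genome: ND1, ND2, ND4, ND5 and ND6 of complex I, CYTB of complex III, COX1, COX2 and COX3 of complex IV, and ATP6 of ATP synthase. They were chosen by name, as the array probes annotated to one of these genes of the mitochondrial genome, so that COX1 and COX2 are cytochrome c oxidase subunits and not prostaglandin synthases. Each gene had 1 probe printed as 2 spots, which made 10 of the 21475 probes on the array other than controls. A further 5 genes of the mitochondrial genome had a probe: ATP8, ND3, ND4L and the ribosomal RNA genes RNR1 and RNR2.

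The samples were bovine neck muscle from 5 cows given dexamethasone, a synthetic glucocorticoid, with estradiol, an oestrogen, and from 5 control cows. Each treated cow received 0.4 mg of oral dexamethasone daily over 31 days and 5 mg of estradiol weekly in 6 intramuscular injections. Meat of every animal, treated or control, was kept under vacuum at 4 °C and sampled at day 14 and day 0, which gave 4 groups of 5 arrays: treated day 14, treated day 0, control day 14 and control day 0. Treated animals are DE27, DE29, DE30, DE31 and DE32 and control animals K3, K6, K8, K9 and K10, and values below follow that order. Each array measured total RNA of 1 animal on 1 day, and the labels name no breed, age or pooling of animals. The day comes from the titles and the collection-day label, because a free-text description contradicts both, and 1 title with a shortened name was read as DE31 by its number.

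The mitochondrial genome is a small circle present in many copies per cell, and its protein-coding genes all specify core subunits of oxidative phosphorylation. Most are copied as part of one long transcript of the heavy strand that is cut into separate mRNAs, whereas ND6 lies on the opposite, light strand. The remaining subunits, the polymerase, the ribosomal proteins and the RNA-binding proteins of the mitochondrion come from nuclear genes, so each respiratory complex other than complex II is built from both genomes. Skeletal muscle is rich in mitochondria, and slow oxidative fibres more so than fast glycolytic ones.

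Values are normalised signals, that is log2 of the processed intensity of a probe after every array was centred on its 75th percentile. They measure abundance relative to the rest of the array. All 10 probes were well above background on 20 of 20 arrays and none was saturated. The scanner reads each slide at a high and a low sensitivity, and every spot of ATP6, COX1, COX2, COX3, CYTB, ND1 and ND4 was read from the low one, 40 of 40 spots per gene, against 39 for ND5, 10 for ND2 and 0 for ND6. In whole muscle, fewer cells of a type and less RNA per cell cannot be told apart. Arrays of the same group correlated over tested probes with r between 0.945 and 0.986, and 9 of 9 measured skeletal muscle markers were above background on all arrays, as were 7 of 7 slow and 6 of 6 fast fibre markers. The cardiac genes NPPA and NPPB and the blood gene SLC4A1 were above background on under 5 arrays. So were the nerve and Schwann cell genes SOX10 and NEFL and the adipocyte gene LEP. Of the same lists, 1 of 4 cardiac, 3 of 5 blood, 3 of 6 nerve and 1 of 6 adipocyte markers were above background on all arrays. All arrays also showed 6 of 6 fibroblast, 6 of 6 endothelial, 5 of 5 smooth muscle and 4 of 5 macrophage markers above background.

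The brightness of the arrays changed with storage and bears on every storage value below. The 75th percentile of processed signal was 377 ± 53.4 intensity units (SD, n = 5) in treated muscle at day 14 and 821 ± 103 at day 0, and 429 ± 98.1 in control muscle at day 14 and 808 ± 113 at day 0. It was lower at day 14 in 10 of 10 animals, by 1.03 on the log2 scale on average (two-sided exact permutation test, p = 0.00195, adjusted p = 0.0117 over 6 tests). Signal of the spike-in control probes, whose RNA is added during labelling, dropped by 0.22 over the same interval (8 of 10 animals, exact permutation p = 0.00781, adjusted p = 0.0234). Spike-in signal was also lower in treated than in control muscle at day 0, with a difference of -0.25 on the log2 scale (exact permutation p = 0.0159, adjusted p = 0.0317), with -0.08 at day 14 (adjusted p = 0.762). Storage changes are therefore given on the 75th percentile scale, on the spike-in scale and without scaling.

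Storage came with higher normalised signals of the mitochondrial-genome genes in both treatments on the 75th percentile scale, and with lower or nearly equal signals on the spike-in scale and without scaling, except COX1 and, on the spike-in scale, ND1 in control muscle (0.59 and 0.25 with spike-in centring, neither passing). On the 75th percentile scale the median change of the 10 genes was 0.95 in treated muscle (day 14 minus day 0, range 0.75 to 1.06) and 0.60 in control muscle (0.43 to 1.22). Over all 15438 tested probes the median was 0.11 in treated and 0.10 in control muscle. In treated muscle 7 of 10 genes passed limma's test upwards at an adjusted p under 0.05, beside 17.9% of all probes, and 0 passed downwards, beside 11.7%. In control muscle 7 of 10 passed upwards, beside 21.8% of all probes, and 0 downwards, beside 17.3%. ATP6, COX1, COX2, COX3, ND1 and ND4 passed in both treatments, CYTB in treated muscle and ND2 in control muscle, while ND5 and ND6 passed in neither.

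**Figure D1:**
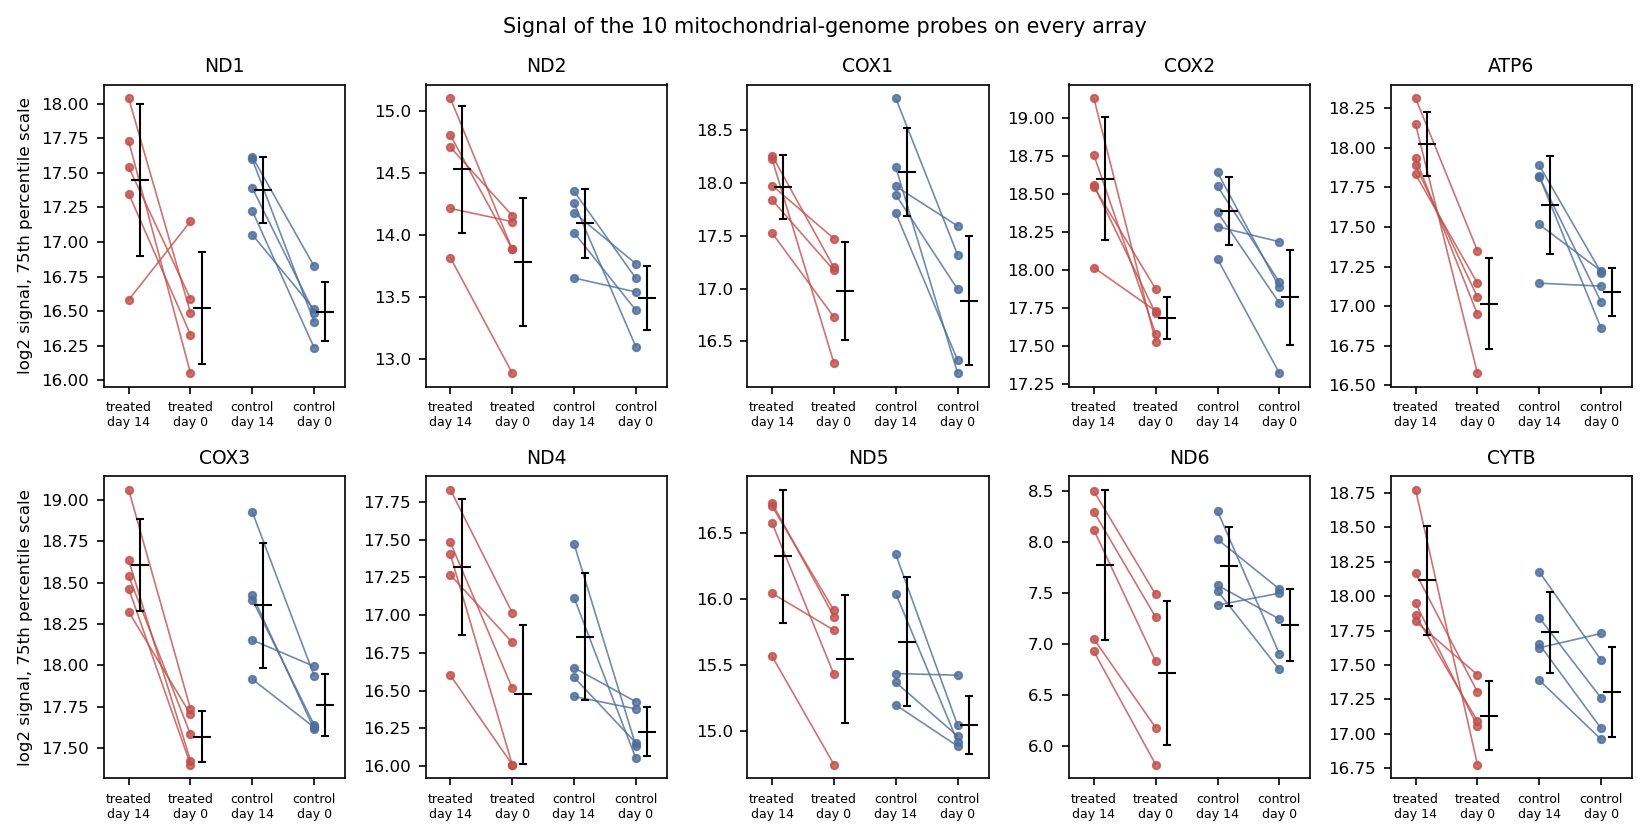
Normalised signal (log2, 75th percentile scale) of the 10 mitochondrial-genome genes on every array, one panel per gene, with treated arrays in red and control arrays in blue. Lines join the arrays of one animal and black bars are group means ± SD (n = 5). For ATP6, COX1, COX2, COX3 and CYTB every treated array at day 14 lies above every treated array at day 0, a pattern tied to this scale, since the median change of the 10 genes is -0.03 on the spike-in scale in either treatment.

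COX1, COX2 and COX3 form the catalytic core of cytochrome c oxidase, the complex that passes electrons to oxygen. COX1 had normalised signals of 17.98, 17.84, 17.53, 18.23 and 18.26 in treated muscle at day 14, against 17.47, 17.17, 16.73, 16.29 and 17.20 at day 0. In control muscle COX1 had 17.97, 18.80, 18.15, 17.89 and 17.72 at day 14, against 17.59, 17.32, 16.20, 16.99 and 16.32 at day 0. In either treatment every array at day 14 lay above every array at day 0. The change was 0.99 ± 0.25 (SE) in treated animals (adjusted p = 0.0118) and 1.22 ± 0.30 in control animals (adjusted p = 0.00976), the largest of the 10 genes in control animals, and every animal was higher at day 14. The largest difference within an animal was 1.95, in control animal K8, and the smallest was 0.38, in control animal K3.

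COX2 gave 18.02, 19.13, 18.55, 18.76 and 18.56 in treated muscle at day 14, against 17.73, 17.53, 17.88, 17.58 and 17.72 at day 0. Its control arrays read 18.29, 18.55, 18.38, 18.64 and 18.07 at day 14, against 18.19, 17.92, 17.78, 17.89 and 17.32 at day 0. Treated arrays of the 2 days did not overlap, whereas control animal K3 at day 0 stood above K10 at day 14, and the other control day 14 arrays were above all of day 0. COX2 rose by 0.92 ± 0.21 in treated animals (adjusted p = 0.0078) and by 0.57 ± 0.19 in control animals (adjusted p = 0.0335) on the 75th percentile scale. COX3 gave 18.54, 19.06, 18.33, 18.64 and 18.47 in treated muscle at day 14, against 17.58, 17.74, 17.70, 17.42 and 17.40 at day 0. Its control arrays read 18.15, 18.93, 18.40, 18.42 and 17.92 at day 14, against 17.99, 17.94, 17.64, 17.61 and 17.63 at day 0. Again the treated days were apart, and in control muscle K10 at day 14 fell among the day 0 arrays. COX3 had the smallest adjusted p of the 10 genes in treated animals, with a change of 1.04 ± 0.18 (adjusted p = 0.00209), and 0.60 ± 0.20 in control animals (adjusted p = 0.0323).

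ATP6 is the membrane subunit of ATP synthase that forms part of its proton channel, and CYTB is the haem-bearing core of complex III, which hands electrons from ubiquinol to cytochrome c. ATP6 had 17.83, 18.31, 17.89, 18.15 and 17.93 in treated muscle at day 14, against 17.15, 17.35, 17.06, 16.58 and 16.95 at day 0. In control muscle ATP6 had 17.52, 17.89, 17.82, 17.82 and 17.15 at day 14, against 17.22, 17.21, 16.86, 17.03 and 17.13 at day 0. The treated days did not overlap, and among control arrays K10 at day 14 was within the day 0 range. ATP6 changed by 1.01 ± 0.19 in treated animals (adjusted p = 0.00296) and by 0.55 ± 0.18 in control animals (adjusted p = 0.0296). With each animal as its own pair, the control change of ATP6 no longer passed (adjusted p = 0.0625). CYTB had 17.82, 18.77, 17.95, 17.86 and 18.17 in treated muscle at day 14, against 17.43, 16.78, 17.05, 17.09 and 17.30 at day 0. In control muscle CYTB had 17.62, 18.18, 17.84, 17.39 and 17.65 at day 14, against 17.73, 17.54, 17.26, 16.96 and 17.04 at day 0. The treated days were apart, while the control days overlapped and K3 was lower at day 14 than at day 0. CYTB rose in treated animals, by 0.98 ± 0.22 (adjusted p = 0.00723), and its value in control animals was 0.43 ± 0.20 (adjusted p = 0.111).

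The 5 complex I genes encode membrane subunits of NADH dehydrogenase, the entry point for electrons from NADH, and ND2, ND4 and ND5 are its antiporter-like proton-pumping subunits. ND1 had 16.58, 18.04, 17.54, 17.35 and 17.73 in treated muscle at day 14, against 17.15, 16.49, 16.59, 16.33 and 16.05 at day 0. In control muscle ND1 had 17.22, 17.61, 17.39, 17.60 and 17.05 at day 14, against 16.24, 16.82, 16.49, 16.42 and 16.51 at day 0. Control arrays of the 2 days did not overlap, and treated animal DE27 ran the other way, with the highest signal of its group at day 0 and the lowest at day 14. ND1 rose by 0.88 ± 0.17 in control animals (adjusted p = 0.00311) and by 0.93 ± 0.29 in treated animals (adjusted p = 0.0312). The treated change did not pass with animals paired (adjusted p = 0.0783). Leaving out DE27 gave ND1 1.30 (adjusted p = 0.00213), and leaving out any other treated animal left an adjusted p between 0.09 and 0.144.

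ND4 had 17.40, 17.83, 17.27, 16.60 and 17.48 in treated muscle at day 14, against 16.01, 17.02, 16.82, 16.01 and 16.52 at day 0. In control muscle ND4 had 16.46, 16.65, 17.11, 17.47 and 16.59 at day 14, against 16.38, 16.43, 16.05, 16.13 and 16.15 at day 0. Control arrays of the 2 days did not overlap, by a narrow margin between K6 at day 0 and K3 at day 14, and in treated muscle DE31 at day 14 fell within the day 0 range. ND4 rose by 0.84 ± 0.27 in treated animals (adjusted p = 0.0383) and by 0.63 ± 0.21 in control animals (adjusted p = 0.033), and the control change did not pass with animals paired (adjusted p = 0.0692). ND5 had 16.70, 16.72, 16.04, 15.57 and 16.57 in treated muscle at day 14, against 15.91, 15.87, 15.76, 14.75 and 15.43 at day 0. In control muscle ND5 had 15.20, 15.44, 16.04, 16.34 and 15.37 at day 14, against 14.89, 15.42, 14.92, 15.04 and 14.96 at day 0. The days overlapped in both treatments, although all 10 animals were higher at day 14. ND5 differed by 0.78 ± 0.29 in treated animals (adjusted p = 0.0653) and by 0.63 ± 0.23 in control animals (adjusted p = 0.0514), and passed in treated animals once they were paired (adjusted p = 0.0252).

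ND2 had 14.21, 14.81, 14.71, 13.82 and 15.11 in treated muscle at day 14, against 14.11, 13.89, 14.16, 12.88 and 13.88 at day 0. In control muscle ND2 had 13.65, 14.18, 14.35, 14.26 and 14.02 at day 14, against 13.54, 13.77, 13.65, 13.10 and 13.39 at day 0. DE31 gave the lowest treated value on both days, and the days overlapped in both treatments. ND2 rose by 0.60 ± 0.19 in control animals (adjusted p = 0.0246), and its value in treated animals was 0.75 ± 0.30 (adjusted p = 0.0836, or 0.0394 with animals paired). ND6, the only one of the 10 genes on the light strand, had 6.93, 8.12, 7.05, 8.50 and 8.30 in treated muscle at day 14, against 5.82, 6.83, 6.18, 7.49 and 7.26 at day 0. In control muscle ND6 had 8.03, 8.31, 7.58, 7.52 and 7.38 at day 14, against 7.54, 6.91, 7.25, 6.75 and 7.50 at day 0. The days overlapped in both treatments, with DE27 and DE30 low and DE31 and DE32 high among treated animals on both days. The difference of ND6 was 1.06 ± 0.40 in treated animals (adjusted p = 0.0669), which passed with animals paired (adjusted p = 0.00733), and the value in control animals was 0.57 ± 0.23 (adjusted p = 0.0669).

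Groups at day 14 and day 0 did not overlap, with day 14 higher, for 5 of the 10 genes in treated muscle (ATP6, COX1, COX2, COX3 and CYTB), beside 12.4% of all tested probes, and day 14 was lower without overlap for 0 genes, beside 8.06%. In control muscle the days were apart with day 14 higher for 3 of 10 (COX1, ND1 and ND4), beside 13.2%, and with day 14 lower for 0, beside 11.9%. In treated animals each gene was higher at day 14 in 5 of 5 animals, except ND1 in 4, and in control animals likewise in 5 of 5, except CYTB and ND6 in 4. With 1 animal left out at a time, 5 to 6 of the 10 genes passed in treated muscle and 2 to 7 in control muscle, ND5 in 1 such fit of either treatment and ND6 in 1 control fit among them, and without K8 or without K9 only COX1 and ND1 passed. In treated muscle ATP6, COX2, COX3 and CYTB passed whichever animal was left out, and COX1 missed once, without DE31 (adjusted p = 0.0587).

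**Figure D2:**
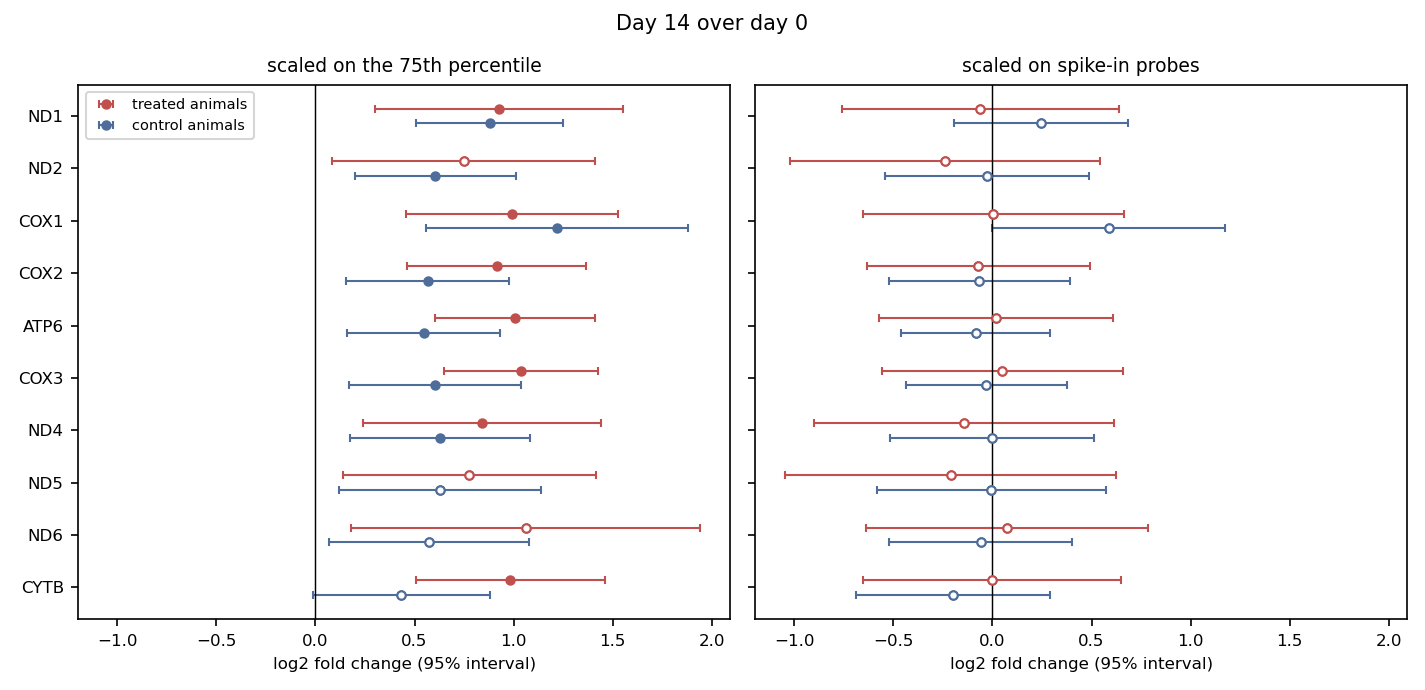
Change between day 14 and day 0 (log2, with 95% confidence intervals of the limma fits) for the 10 genes, in the order of the genome, in treated animals (red) and control animals (blue). Filled points passed at an adjusted p under 0.05 and open points did not. On the 75th percentile scale, left, all points lie right of 0, and on the spike-in scale, right, the medians are -0.03 in both treatments and no point passed.

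The scale decided the sign. On the spike-in scale the 10 genes changed by a median of -0.03 in treated muscle (-0.24 to 0.08) and -0.03 in control muscle (-0.20 to 0.59), and none passed, with 0 at an unadjusted p under 0.05. The nearest was COX1 in control muscle, at 0.59 ± 0.27 (adjusted p = 0.0931). On that scale the median of all tested probes was -0.88 in treated and -0.54 in control muscle, with 342 probes higher and 8145 lower in treated muscle and 733 higher and 6400 lower in control muscle. Without scaling the genes' medians were -0.17 in treated and -0.33 in control muscle, against -1.02 and -0.84 over all probes, with 310 probes higher and 10194 lower in treated muscle and 301 higher and 8480 lower in control muscle. Relative to the median of all probes, the genes' median lay 0.85 higher in treated and 0.51 higher in control muscle on each of these 3 scales. This equality is built in, because the 3 scales differ only by a constant per array, and it is no check of the result.

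The other bright probes of the array give the values seen at this signal range. Outside the mitochondrial genome, 87 tested probes were read wholly from the low-sensitivity scan. Their median change was 0.28 in treated muscle, where 15 were higher and 1 lower, beside 17.9% and 11.7% of all probes. In control muscle the median was 0.00, and 13 were higher and 3 lower, beside 21.8% and 17.3%. Changes were above 0 for 79.3% of these 87 probes in treated muscle, beside 56.1% of all probes. In control muscle the shares were 50.6% and 54.9%. On the spike-in scale the median of these probes was -0.71 in treated and -0.63 in control muscle. The part that the scan range plays in the storage values was not tested.

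Nuclear-encoded subunits of the complexes that hold the 10 genes, and of complex II, were more often lower than higher at day 14 on the 75th percentile scale. In treated muscle 19 of 80 tested subunits were lower and 2 higher (median -0.47), beside 11.7% of all probes lower and 17.9% higher. In control muscle 33 of 80 were lower and 2 higher (median -0.58), beside 17.3% of all probes lower and 21.8% higher. On the spike-in scale 67 subunits were lower in treated and 64 in control muscle, with 0 higher in either. Of all 15438 probes, 8145 and 6400 were lower on that scale. Single animals moved these counts. In treated muscle 38 subunits were lower without DE27, 17 without DE30, 3 without DE29, and 2 without DE31 or without DE32, and in control muscle 43 were lower without K10, 26 without K8, 15 without K6, 14 without K3 and 12 without K9. Animals as pairs gave 12 lower in treated and 24 in control muscle, and the slide as a fixed block gave 0 in either. Within complex I, 10 of 37 nuclear subunits fell in treated and 16 of 37 in control muscle, among them NDUFB5, an accessory subunit, by 1.42 ± 0.30 in treated animals (adjusted p = 0.00557) and by 1.35 ± 0.28 in control animals (adjusted p = 0.00412). Of complex II, which has no mitochondrial-genome subunit, SDHC, a membrane anchor, fell by 1.16 ± 0.30 in treated animals (adjusted p = 0.0154) and by 0.92 ± 0.26 in control animals (adjusted p = 0.018), and 1 of 4 subunits fell in treated and 2 of 4 in control muscle. Of complex III, 3 of 9 nuclear subunits fell in treated and 4 of 9 in control muscle, with UQCRB, a small subunit, at -1.81 ± 0.46 in treated animals and -1.94 ± 0.52 in control animals, the control value turning to 0.060 with the slide as a fixed block. Complex IV stood no higher than the share of all probes called lower (11.7% in treated and 17.3% in control muscle), with 1 of 13 lower in treated and 2 of 13 in control muscle, COX5A, a matrix-side subunit, among them, at -1.30 ± 0.36 in treated and -1.63 ± 0.38 in control animals. Of ATP synthase, 4 of 17 fell in treated and 9 of 17 in control muscle, including ATP5PB, a stalk subunit, by 1.47 ± 0.48 in treated and by 1.97 ± 0.43 in control animals. The subunits that rose were ATP5MF and ATP5MK in treated muscle and ATP5MF and COX8B in control muscle, with values of 0.93 and 0.73 in treated and 0.56 and 0.54 in control muscle, all below 0 on the spike-in scale. NDUFB5 passed in both treatments whichever animal was left out, and COX5A and ATP5PB did so in control muscle, whereas SDHC and UQCRB each passed in 2 of 5 such fits in either treatment, and in treated muscle COX5A passed in 2 of 5 and ATP5PB in 1 of 5.

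**Figure D3:**
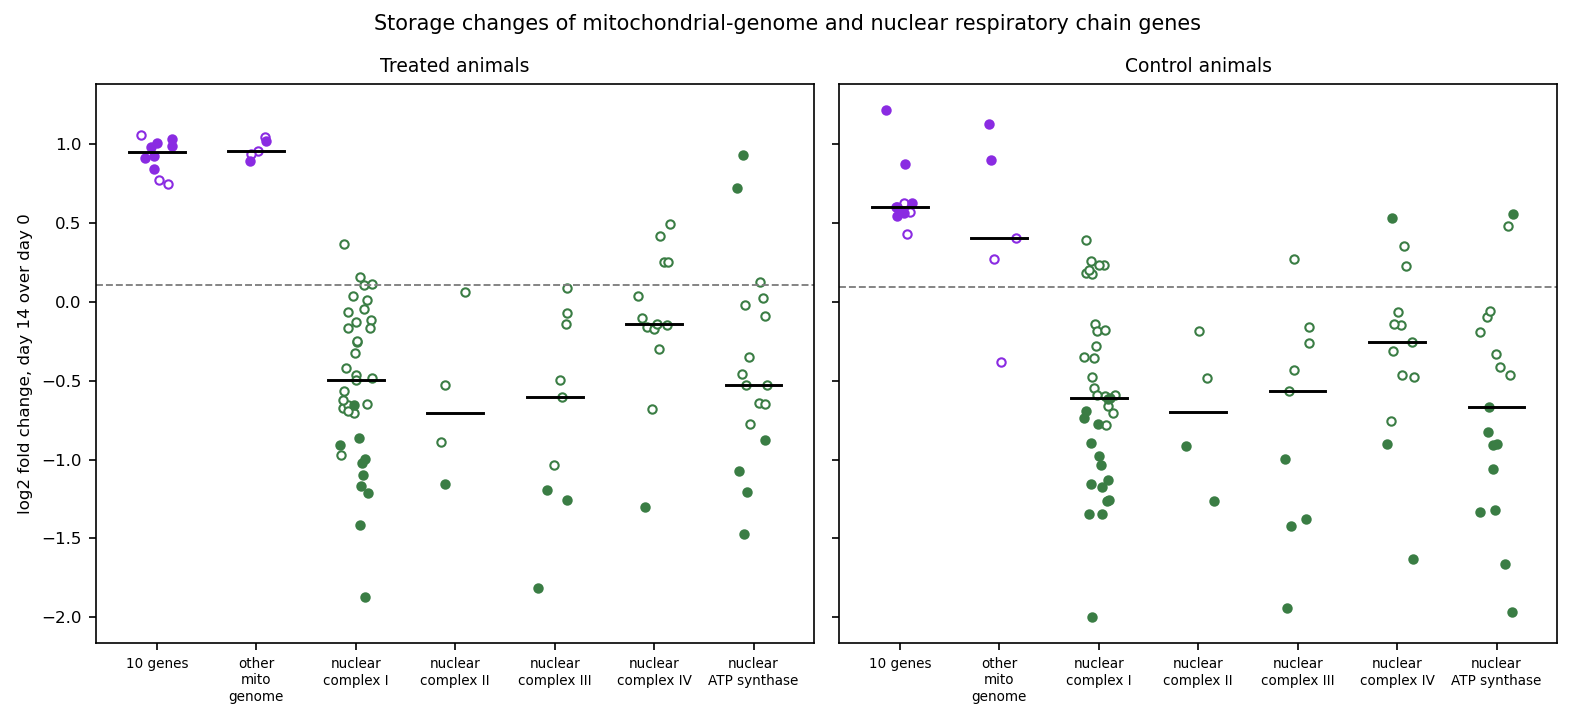
Changes between day 14 and day 0 (log2, 75th percentile scale) of mitochondrial-genome genes and nuclear-encoded subunits by complex, for treated and control animals. Each point is a gene, filled where it passed, black bars are medians and the dashed line is the median of all tested probes, 0.11 in treated and 0.10 in control muscle. The 10 genes and the other mitochondrial-genome genes lie above that line on this scale, except ND3 in control muscle at -0.38, and most nuclear subunits lie below it; on the spike-in scale the median of the 10 genes is -0.03 in both treatments.

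A difference formed within each array needs no scaling between arrays. The mean log2 signal of the 10 genes minus that of 77 nuclear subunits was 2.54 ± 0.70 (SD, n = 5) in treated muscle at day 14 and 1.16 ± 0.26 at day 0. In control muscle it was 2.62 ± 0.62 at day 14 and 1.38 ± 0.14 at day 0. The difference was larger at day 14 in 10 of 10 animals, from 0.07 in DE27 to 2.13 in DE31 among treated animals and from 0.31 in K10 to 1.88 in K9 among control animals. Its level depends on the probes, and only its change within an animal is compared. Both lists were chosen with storage results known, and no test is given.

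**Figure D4:**
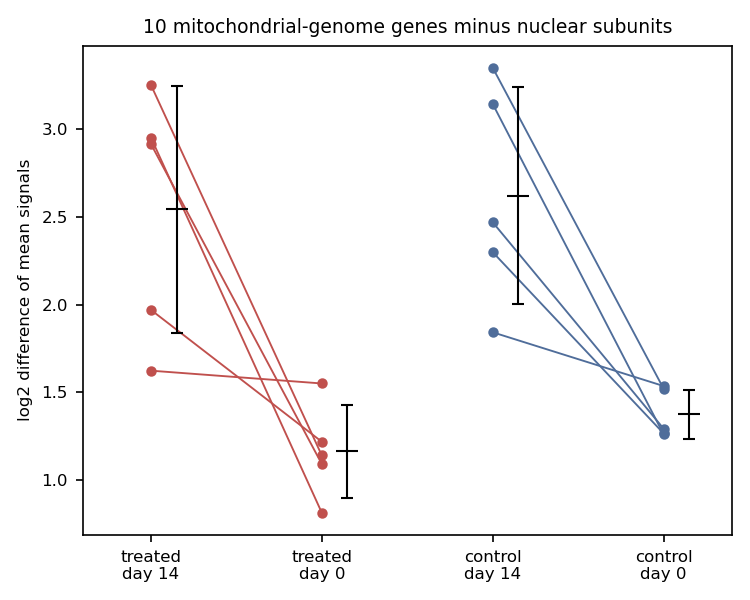
Mean log2 signal of the 10 mitochondrial-genome genes minus that of 77 nuclear subunits within each array, by group, with lines joining the arrays of one animal and black bars for group means ± SD (n = 5). All 10 animals lie higher at day 14, DE27 and K10 by the smallest steps of their treatments, 0.07 and 0.31.

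The machinery that makes and maintains mitochondrial transcripts was represented by nuclear genes chosen by name. Its counts are on the 75th percentile scale unless another is named. Beside them, 11.7% of all probes were lower and 17.9% higher in treated muscle, and 17.3% lower and 21.8% higher in control muscle. Of mitochondrial ribosomal proteins, 23 of 69 fell and 1 rose in treated muscle and 34 of 69 fell and 0 rose in control muscle, MRPS21 by 0.99 in treated and by 1.08 in control animals. MRPS23 was not well above background in either group at day 14 and was at least 3.74-fold lower at day 14 than at day 0 in treated muscle and at least 3.55-fold lower in control muscle (adjusted p = 0.000184 in treated and 0.000612 in control muscle), a direction that turned with normexp background correction (0.92 in treated and 0.70 in control muscle). Of 7 tested translation factors, 3 fell in treated and 5 in control muscle (6 and 6 on the spike-in scale), with TSFM, an elongation factor, at -1.71 ± 0.27 in treated and -1.40 ± 0.31 in control animals. Of 7 transcription genes, 1 fell in treated and 3 in control muscle, including TEFM, a transcription elongation factor, which fell by 1.05 in treated and by 1.33 in control animals. TFAM, which packages mitochondrial DNA and starts transcription, had values of -0.05 ± 0.22 in treated and -0.09 ± 0.22 in control animals, and POLRMT, the polymerase, was not on the array under this name. LRPPRC, which stabilises mitochondrial mRNAs, fell by 0.99 ± 0.30 in treated animals (adjusted p = 0.029) and by 1.11 ± 0.26 in control animals (adjusted p = 0.00793). Of the 19 RNA processing and stability genes tested, 4 fell and 1 rose in treated muscle, and 6 fell and 2 rose in control muscle. Of 18 assembly factors, 4 fell and 2 rose in treated and 6 fell and 2 rose in control muscle, SCO1, a copper chaperone for complex IV, rising by 1.56 ± 0.26 in treated and by 1.49 ± 0.21 in control animals. Of 10 replication genes, SSBP1, which binds single-stranded mitochondrial DNA, rose by 0.75 in treated muscle and RNASEH1, which removes RNA from RNA-DNA hybrids, fell by 1.47 in control muscle. Of 10 regulators of biogenesis, 2 rose and 1 fell in treated muscle and 1 rose and 1 fell in control muscle. NRF1, a transcription factor of nuclear genes for mitochondria, rose by 0.89 in treated and by 1.15 in control muscle, PPRC1, a coactivator, rose by 0.79 in treated muscle, and SIRT1, a deacetylase, fell by 0.65 in treated and by 0.39 in control muscle, a direction that turned with normexp background correction (0.39 and 0.31). On the spike-in scale, of the genes of this machinery named as rising, SCO1 alone passed upwards, in control muscle (0.86, adjusted p = 0.0136). More genes were called lower on that scale, namely 62 ribosomal proteins in treated and 54 in control muscle, 7 and 6 of the 7 transcription genes, 14 and 12 of the 19 RNA processing genes, 12 and 11 of the 18 assembly factors, 7 and 5 of the 10 replication genes, and 5 and 4 of the 10 regulators. Of all 15438 probes, 8145 were lower on that scale in treated and 6400 in control muscle, a share near that of the regulators. MRPS21, MRPS23, TSFM and SCO1 passed in both treatments whichever animal was left out, whereas in treated muscle TEFM, LRPPRC and SSBP1 passed in 1 of 5 such fits, without DE27, and NRF1, PPRC1 and SIRT1 in 2 of 5. In control muscle SIRT1 passed in 0 of 5 and RNASEH1 in 3 of 5.

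The remaining mitochondrial-genome genes were measured beside the 10. RNR2, the large ribosomal RNA, rose by 0.89 ± 0.23 in treated (adjusted p = 0.0146) and by 0.90 ± 0.25 in control animals (adjusted p = 0.0153), and RNR1, the small one, rose by 1.02 ± 0.23 in treated animals (adjusted p = 0.00811) with 0.41 ± 0.25 in control animals. ND4L, a small complex I subunit, rose by 1.13 ± 0.25 in control animals (adjusted p = 0.00559), with 0.94 ± 0.33 in treated animals (adjusted p = 0.0518). ATP8, the small partner of ATP6, had 1.05 ± 0.43 in treated and 0.27 ± 0.27 in control animals. ND3, another small complex I subunit, had 0.96 ± 0.45 in treated and -0.38 ± 0.38 in control animals, the only negative value among the 15 genes on the 75th percentile scale. None of these 5 genes passed on the spike-in scale.

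Some markers of cell types changed with storage beside these genes, several lists at about the share of all probes. Their part in the result was not tested. That share was 17.9% higher and 11.7% lower in treated and 21.8% higher and 17.3% lower in control muscle on the 75th percentile scale. On the spike-in scale 342 of 15438 probes were higher and 8145 lower in treated muscle, and 733 higher and 6400 lower in control muscle. On the 75th percentile scale 3 of 6 fibroblast and 2 of 5 adipocyte markers fell and 2 of 6 endothelial markers rose in treated muscle, whereas on the spike-in scale 6 of 6 fibroblast and 5 of 5 adipocyte markers were lower and 0 endothelial markers higher. In control muscle 5 of 5 smooth muscle markers, 4 of 6 endothelial and 2 of 4 blood markers rose while 3 of 6 fibroblast markers fell on the 75th percentile scale, whereas on the spike-in scale 1 smooth muscle, 0 endothelial and 1 blood marker were higher and 3 fibroblast and 2 adipocyte markers lower. Of 5 macrophage markers 1 fell in treated and 1 in control muscle (4 and 2 on the spike-in scale), and in treated muscle 0 of 5 smooth muscle markers passed and 1 of 4 blood markers rose (0 of either higher on the spike-in scale). The sums that follow are on the 75th percentile scale. The summed fibroblast level (log2) ranged from 12.96 to 15.28 in treated muscle at day 14 and from 14.75 to 16.07 at day 0, and from 14.11 to 16.43 in control muscle at day 14 and from 14.88 to 15.97 at day 0. The summed endothelial level ranged from 12.61 to 13.83 in treated muscle at day 14 and from 12.47 to 12.59 at day 0, and from 12.36 to 13.82 in control muscle at day 14 and from 11.999 to 12.46 at day 0. In treated muscle every endothelial sum at day 14 was above every one at day 0, by a narrow margin (12.609 against 12.586). Of all single probes, 12.4% were apart in that direction. The summed smooth muscle level ranged from 13.86 to 15.91 in treated muscle at day 14 and from 14.02 to 14.97 at day 0, and from 14.49 to 16.59 in control muscle at day 14 and from 14.12 to 14.49 at day 0. Of 7 slow fibre markers 1 rose in treated and 2 in control muscle on the 75th percentile scale, whereas on the spike-in scale 0 were higher in either and 2 were lower in control muscle. Of 6 fast fibre markers 1 rose in treated and 1 fell in control muscle (2 lower in each on the spike-in scale), and of 9 skeletal muscle markers 3 rose and 1 fell in treated and 1 rose and 4 fell in control muscle (2 higher and 5 lower, and 1 higher and 6 lower, on the spike-in scale). The summed slow fibre level ranged from 19.87 to 20.68 in treated muscle at day 14 and from 19.55 to 20.01 at day 0, and from 19.72 to 20.39 in control muscle at day 14 and from 19.65 to 20.02 at day 0.

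A scan session here means arrays with the same scan date. On the 75th percentile scale the 10 genes were higher at day 14 within every session and slide that held both days of a treatment. The median differences were 0.78 and 0.93 in the 2 sessions with treated arrays of both days, and 0.61, 0.66 and 0.65 in the 3 sessions with control arrays of both days. They were 1.05 on the only slide that held treated arrays of both days, and 0.65 on the only such slide of control arrays. With the slide as a fixed block, which leaves the comparison to those slides, 0 genes passed in either treatment, and over all 15438 probes 0 passed in treated animals and 147 higher and 36 lower in control animals.

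Treatment with dexamethasone and estradiol gave no call among the 10 genes on either day. At day 0 the median difference between treated and control muscle was -0.02 (range -0.47 to 0.50), with 5 genes positive, and the median of all probes was -0.01. Of all tested probes 1.35% were called higher and 1.12% lower in treated muscle by limma with Benjamini-Hochberg adjustment, against 0 of 10 genes in either direction, 0 of which had an unadjusted p under 0.05. At day 14 the median difference was 0.31 (range -0.14 to 0.64), with 9 genes positive, and the median of all probes was 0.05. Here 0.0259% of all probes were called higher and 0.0453% lower, again against 0 of 10 genes, and 0 had an unadjusted p under 0.05. With spike-in centring, where the lower spike-in signal of treated arrays at day 0 enters every value, the medians were 0.25 at day 0, where the median of all probes was 0.26, and 0.23 at day 14, where it was -0.04, and 0 genes passed. Treated and control arrays overlapped for all 10 genes on both days, whereas they were apart with treated higher for 2.95% of probes and lower for 2.91% at day 0, and for 1.19% and 1.09% at day 14. Within the 3 scan sessions with both treatments the medians at day 0 were -0.13, 0.01 and 0.40, and within the 2 such sessions at day 14 they were 0.07 and 0.28.

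ND5 had the smallest adjusted p on both days, with a treated-minus-control difference of 0.50 ± 0.23 at day 0 (adjusted p = 0.294) and 0.64 ± 0.29 at day 14 (adjusted p = 0.48). At day 0 its treated arrays other than that of DE31 all lay above every control array. For ND2 and for ND4L 4 of 5 did so, and for ND4 3 of 5. The share of all probes with such a partial separation is not given, so these counts have no array-wide value beside them. DE31 gave the lowest day 0 value of the treated group for ND2, ND5 and, together with DE27, ND4. Without DE31 the day 0 difference of ND5 was 0.69 (adjusted p = 0.0788), that of ND2 0.52 (adjusted p = 0.164) and that of ND4 0.36 (adjusted p = 0.434). ND4L, at 0.74 ± 0.28 with all animals (adjusted p = 0.207), passed without DE31 at 1.02 (adjusted p = 0.0283). ND4L passed in only 1 of 10 fits without 1 animal (highest adjusted p = 0.349), and ND2, ND4 and ND5 in 0 of 10. DE31 was singled out from these same values.

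For most of the other genes, 95% confidence intervals of the treated-minus-control difference (in brackets) show how far it could go in either direction. At day 0 ATP6 had -0.07 (-0.43 to 0.28), COX2 -0.13 (-0.50 to 0.23), COX3 -0.19 (-0.50 to 0.11) and CYTB -0.17 (-0.59 to 0.24). COX1 had 0.09 (-0.60 to 0.77), ND1 0.03 (-0.42 to 0.47) and ND6 -0.47 (-1.17 to 0.23). At day 14 ATP6 had 0.39 (-0.04 to 0.81), CYTB 0.38 (-0.12 to 0.88), COX3 0.24 (-0.24 to 0.73) and ND4 0.46 (-0.13 to 1.05). COX1 was the only negative value at day 14, -0.14 (-0.66 to 0.38).

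**Figure D5:**
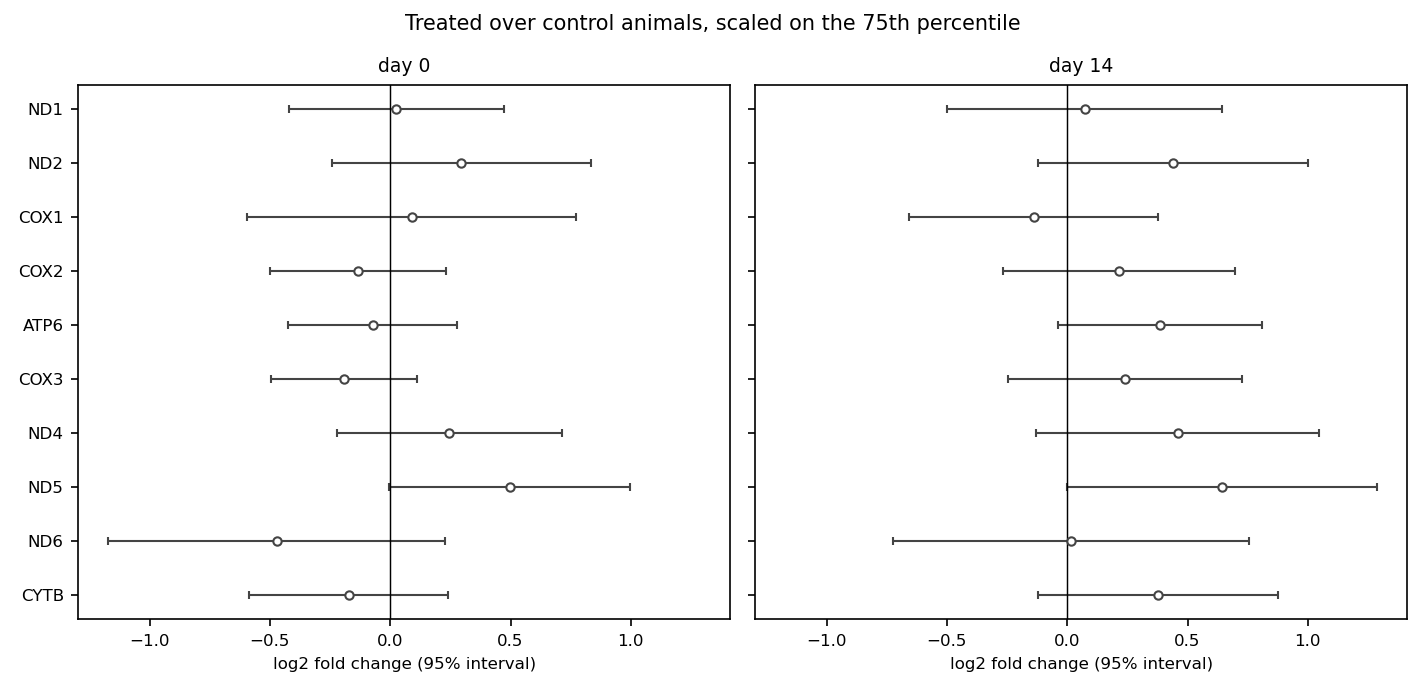
Difference between treated and control muscle (log2, 75th percentile scale, with 95% confidence intervals of the limma fits) for the 10 genes at day 0 and day 14. All points are open because none passed, and the median difference is -0.02 at day 0 and 0.31 at day 14.

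The nuclear partners gave few calls by treatment. At day 0, 2 of 80 nuclear subunits were higher in treated muscle and 0 lower (median 0.24), beside 1.35% and 1.12% of all probes. They were NDUFV1, which binds the NADH of complex I, at 0.55 ± 0.12 (adjusted p = 0.0417) and SDHA, the flavin subunit of complex II, at 0.59 ± 0.12 (adjusted p = 0.0313). Without 1 animal 0 or 1 of the 80 passed, NDUFV1 in 1 of 10 such fits (without K3) and SDHA in 2 of 10 (without K6 and without DE27). None passed with the slide as a fixed block, with all arrays in 1 fit, without scaling or without the filter on dim probes. With spike-in centring 10 were higher, beside 502 of all 15438 probes. Of the regulators, SIRT3, a mitochondrial deacylase, was higher by 0.93 ± 0.18 (adjusted p = 0.0262), and TFB1M, a ribosomal RNA methyltransferase of the mitochondrion, was lower, at -0.69 ± 0.15 (adjusted p = 0.0341, but 0.169 on the spike-in scale). SIRT3 passed in 3 of 10 fits without 1 animal and TFB1M in 1 of 10. PPARGC1A, a coactivator of mitochondrial biogenesis, had 1.65 ± 0.53 at day 0 (adjusted p = 0.137) and 0.89 ± 0.63 at day 14 (adjusted p = 0.657). TFAM had 0.45 ± 0.19 at day 0 (adjusted p = 0.268) and 0.48 ± 0.24 at day 14 (adjusted p = 0.515). At day 14 none of the 80 subunits passed, with 2 at an unadjusted p under 0.05. Differences were above 0 for 70 of the 80 at day 0, beside 48.9% of all probes, and for 78 at day 14 (median 0.33), beside 55.5%. The unadjusted limma p at day 0 was under 0.05 for 10 of 37 complex I, 2 of 4 complex II and 3 of 9 complex III subunits. The same held for 5 of 13 complex IV and 4 of 17 ATP synthase subunits, beside 2663 of all 15438 probes.

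The storage change itself was not shown to differ between treatments. The interaction, the treated change minus the control change, had a median of 0.28 over the 10 genes and 0.04 over all probes, and 0% of all probes were called higher and 0% lower, with 538 at an unadjusted p under 0.05. Of the genes 0 of 10 passed and 0 had an unadjusted p under 0.05. The largest was CYTB, at 0.55 ± 0.29 (95% confidence interval -0.06 to 1.16, adjusted p = 0.999), followed by ND6 at 0.49 ± 0.48, ATP6 at 0.46 ± 0.24 and COX3 at 0.43 ± 0.25. COX1 was negative, at -0.23 ± 0.40 (-1.06 to 0.61). On the spike-in scale the median was -0.07, with 4 of 10 genes positive.

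Within groups, the 10 genes varied together only in part. Over 45 pairs of genes, the correlation of deviations from the 4 group means over 20 arrays ranged from r = -0.51 to 0.80 with a median of 0.34, given as a description because the genes share arrays and scaling. ATP6 and COX3, which are neighbours on the heavy strand, had r = 0.80, and ND4 and ND5 had 0.79. ND5 and ND6, neighbours on opposite strands, had -0.51, and ND6 had a median of 0.07 with the other 9 genes. Of the 13 protein-coding genes with ATP8, ND3 and ND4L included, the 12 pairs of neighbours had a median of 0.36 and the other 66 pairs 0.28. ND4L had r = 0.90 with ND5, 0.79 with ND2 and 0.75 with ND4.

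The nuclear genes most like the mean of the 10 genes in these deviations were, of 11394 compared, TNFSF10, a ligand that triggers apoptosis (r = 0.84), PLAC8A (0.83), S1PR1, a receptor for sphingosine 1-phosphate (0.83), ACOT11, an acyl-CoA thioesterase (0.82), and CTSC, a lysosomal protease (0.82). On the 75th percentile scale TNFSF10 rose with storage by 1.61 in treated animals (adjusted p = 0.00652) and by 1.48 in control animals (adjusted p = 0.0028). S1PR1 rose by 0.90 in treated (adjusted p = 0.0201) and by 0.96 in control animals (adjusted p = 0.0121). PLAC8A rose by 1.21 in treated animals (adjusted p = 0.0236), with 0.53 in control animals (adjusted p = 0.267). ACOT11 rose by 1.17 in control animals (adjusted p = 0.0106), with 0.72 in treated animals (adjusted p = 0.0788). CTSC had the only negative value, -0.05 in treated animals, with 0.46 in control animals (adjusted p = 0.933 and 0.194). Correlations of all 11394 genes ranged from -0.85 to 0.84, and these genes are the highest. TNFSF10 was also higher in treated than control muscle at day 0, by 1.54 (adjusted p = 0.0183), with 1.67 at day 14 (adjusted p = 0.168).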

How the data were processed

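Total RNA of 20 neck muscle samples was labelled with cyanine 3 and hybridised to a 1-colour Agilent bovine array, per the labels' protocols. The values used are the processed signal, an intensity per spot that the authors deposited after background subtraction and detrending. A deposited series table of intensity values, normalised by a method not given in the sources used here, served as an alternative; the submitters' processing notes name R 2.11.1. Other per-spot marks in the deposited files (outlier, above background, saturated, scan used) served as filters.

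Log2 signals were centred on the 75th percentile of each array, with the mean percentile added back. Outlier spots (935) were left out and spots of a probe averaged. A probe was tested when above background on at least 5 of 20 arrays, which left 15438 of 21475 probes. Symbols of nuclear genes were updated from the files' gene numbers, accessions and descriptions with RefSeq gene names (ARS-UCD2.0). Genome positions served only to order the protein-coding genes of the mitochondrial genome, and probe sequences are not used here. Where a probe was above background on no array of a group, its fold is given as at least the ratio to the background level. Precision is limited by the 5 animals per group.

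Groups were compared with limma 3.58.1 (lmFit, eBayes; statmod 1.5.0, R 4.3.3) and Benjamini-Hochberg adjustment over all tested probes, threshold 0.05, after tests on simulated data. Errors of changes are standard errors (SE). Array brightness was compared with exact permutation tests. Alternatives were other background corrections and scalings, the series table, slide, session and animal as blocks, and leaving out each animal. The 2 arrays of an animal pair by design; their deviations from group means correlated with r between -0.15 and 0.28, and in 5 of 10 animals best with their own. The 10 genes, the other lists, the named genes and the tests were chosen with earlier results of these data known. For storage, members, other mitochondrial-genome genes, TFAM, POLRMT and LRPPRC were named whatever their result. In the treatment comparisons this held for TFAM and PPARGC1A, while values of members are given in part and, of the other mitochondrial-genome genes, only those of ND4L. The interaction is also given for part of the members. Others were named from up to 3 per list and direction by p, and where none passed the one with the smallest p.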

Additional observations from a re-analysis of the deposited data

Results flagged for a closer look

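Of 40 groups of 5 arrays (10 genes in 4 groups), 1 held an array far from the others, where chance gives about 1 in 20. ND2 in treated muscle at day 0 was 12.88 in DE31, and the gap to the next array was 0.785 of the range of the group, above the critical value of 0.71. The 4 other treated arrays had values from 13.88 to 14.16. DE31 also had the lowest ND2 signal of treated muscle at day 14, 13.82. The cause was not tested.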

How the results depend on the processing

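The number of the 10 genes called for storage depended on the scaling. With 7 called in treated and 7 in control animals, the counts were 4 in treated and 3 in control animals with normexp background correction, 1 in treated animals with quantile normalization, 2 in control animals with median centring, and 0 in both with spike-in centring, with spike-in centring and the animals paired as a replicate block, without scaling, and with the slide as a block. Leaving out 1 animal gave 5 to 6 in treated and 2 to 7 in control animals (2 without K8 or without K9). The replicate block alone gave 9 in treated and 5 in control animals and 0 for the interaction. The highest counts were 10 in treated animals, with all arrays in 1 fit, and 9 in control animals, with the series table and with the percentile over probes above background on all arrays. Treatment and interaction gave 0 genes under all 24 and 26 alternatives. Calls over all probes ranged from 0 to 7114 higher and 0 to 10194 lower for storage in treated animals, from 147 to 5921 and 36 to 8480 in control animals, from 75 to 502 and 59 to 317 for treatment at day 0, and from 0 to 41 and 0 to 65 at day 14. The mean level of the genes was 16.08 (treated day 0), 15.80 (control day 0), 16.02 (treated day 14) and 15.84 (control day 14) with spike-in centring, and 16.07, 16.03, 15.87 and 15.77 in that order without scaling.

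Signs that turned under scaling follow from the constant shift of each array. Only values with a call in either fit are listed here, so genes that passed in neither are left out. Without scaling, treated storage changes became -0.12 (ATP6), -0.13 (COX1), -0.21 (COX2), -0.089 (COX3), -0.14 (CYTB), -0.20 (ND1), -0.28 (ND4), -0.10 (RNR1), -0.23 (RNR2), -0.19 (ATP5MF), -0.40 (ATP5MK), -0.045 (COX10), -0.41 (MRPS28), -0.24 (NRF1), -0.34 (PPRC1), -0.38 (SSBP1) and -0.64 (TRMT10C). Control changes became -0.39 (ATP6), -0.37 (COX2), -0.34 (COX3), -0.058 (ND1), -0.33 (ND2), -0.31 (ND4), -0.035 (RNR2), -0.38 (ATP5MF), -0.18 (COX10), -0.40 (COX8B) and -0.43 (FASTK). With spike-in centring, with or without the replicate block, treated changes became -0.071 (COX2), -0.0036 (CYTB), -0.062 (ND1), -0.15 (ND4), -0.094 (RNR2), -0.057 (ATP5MF), -0.26 (ATP5MK), -0.28 (MRPS28), -0.098 (NRF1), -0.20 (PPRC1), -0.24 (SSBP1) and -0.50 (TRMT10C), and control changes -0.085 (ATP6), -0.066 (COX2), -0.031 (COX3), -0.028 (ND2), -0.0033 (ND4), -0.075 (ATP5MF), -0.096 (COX8B) and -0.13 (FASTK). Normexp turned dim or falling probes to 0.92 (MRPS23), 0.84 (NDUFAF7), 0.996 (PRORP) and 0.39 (SIRT1) in treated animals and 0.70 (MRPS23), 0.70 (NDUFAF7) and 0.31 (SIRT1) in control animals, and the slide block gave -0.13 (ATP5MF) and 0.060 (UQCRB) in control animals; the cause was not tested. Of 4434 values of single genes over the alternatives, 77 turned sign with a call in either fit and 140 with a call in neither. A further 410 kept their sign and lost a call, and 53 kept it and gained one. The slide as a random block, spike-in centring with pairing, the bright-probe median and the difference from nuclear subunits were chosen after seeing the data.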
